A study of Homo sapiens with 10 samples.

Results

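The B-lineage transcription factors described here are 10 genes of 63677 listed in the files: PAX5, EBF1, TCF3, IKZF1, IKZF3, FOXO1, LEF1, ERG, BACH2 and SPIB. Their symbols were matched to Ensembl gene IDs through GENCODE, all 10 were found, and 9 of the 10 were tested among 16756 genes with enough counts. The RNA came from RS4;11, an established B-cell precursor acute lymphoblastic leukaemia (BCP-ALL) line that carries the KMT2A::AFF1 fusion. From it, 5 venetoclax-insensitive lines (VENins) were grown in parallel under concentrations of venetoclax, a BCL-2 inhibitor, that were raised stepwise over months, and 5 venetoclax-sensitive lines (VENsens) under the solvent DMSO. Culture of the VENins lines was under venetoclax, which was removed by washing before RNA was taken. Each line gave 1 poly(A) RNA library, so n = 5 a group, and since all 10 lines descend from one parental line, p-values measure the spread between these lines.

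B-cell identity is built by a small network of transcription factors. The E protein encoded by TCF3 and the factor EBF1 open the program in lymphoid progenitors, PAX5 then commits cells to the B lineage and silences genes of other lineages, and Ikaros (IKZF1), FOXO1, LEF1, BACH2 and SPIB act beside them on pre-B cell receptor signalling, recombination and the step towards plasma cells. Several of these genes are deleted or mutated in BCP-ALL, PAX5 and IKZF1 most often.

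The files held 38491516 to 52960365 reads a library, of which 20631907 to 28323643 counts fell on genes. Levels are CPM, counts per 1000000 counts on genes, after scaling by trimmed mean of M-values. Of the B-precursor markers of this label, the mean ± SD in VENsens was 562 ± 11.5 CPM for the surrogate light chain gene VPREB1 and 548 ± 24.1 for the receptor component CD79A. The progenitor marker CD34 (0.0581 ± 0.0378 CPM) and the pre-B antigen MME (1.01 ± 0.279 CPM) were close to absent. CD24 was listed at 0 counts in all 10 libraries, and the cause of that 0 was not tested. CD34, MME and CD24 were singled out after their values were seen.

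Across all genes, edgeR's quasi-likelihood test, fitted on group and line number with Benjamini-Hochberg adjustment, called 33 genes (adjusted p under 0.05), 27 lower and 6 higher in VENins. Once each library's trend on the length and GC content of transcripts was taken out, it called 146, of which 42.5% were higher against 18.2% here, and DESeq2 called 217, of which 30.9% were higher. With no term for line number edgeR called 149, of which 32.9% were higher, and DESeq2 739, of which 48.4% were higher. The edgeR total was 57, 6, 17, 331 and 9 when line pair 1, 2, 3, 4 or 5 (the lines of each group with that number) was left out. Among the 9 tested factors, 1 was called lower, beside 0.161% of all tested genes, and 0 higher, beside 0.0358%. At an unadjusted p under 0.05 edgeR found 2 factors lower, beside 8.38% of all genes, and 1 higher, beside 7.79%. DESeq2 called 1 lower, beside 1.17%, and 0 higher, beside 0.521%. The VENins and VENsens lines did not overlap for 1 factor that was lower, beside 2.3% of all genes, and for 0 that were higher, beside 2.36%, and the same 1 factor was lower in all 5 line pairs, beside 6.66% of genes, against 0 that were higher in all 5, beside 7.61%. That factor was PAX5. The median log2 fold change of the 9 was -0.016, beside 0.0035 over all genes tested, and turned to 0.0070 without line pair 5 and to 0.032 once the length and GC trend was taken out.

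PAX5 (ENSG00000196092, chromosome 9), the paired-box factor that commits cells to the B lineage, stood at 782, 827, 713, 804 and 790.1 CPM in VENsens lines 1 to 5 and at 632, 584, 615, 676 and 647 CPM in VENins lines 1 to 5. Every VENins line lay below every VENsens line, with VENins 2 the lowest and VENins 4 the nearest to the controls. PAX5 fell by 19.5% (95% confidence interval -25.5 to -12.9%), from 783 ± 42.9 CPM in VENsens to 631 ± 34.7 CPM in VENins. On the log2 scale this was -0.31 (SE 0.053, edgeR adjusted p = 0.0272). In bulk RNA, fewer cells that express PAX5 and less PAX5 RNA per cell cannot be told apart. The log2 fold change ran from -0.34 to -0.22 over 15 alternative settings and the adjusted p from 1.24e-06 to 0.242. The lowest adjusted p came with no filter on low counts, a fit that leaves out the spread of the single gene. The call was lost without line pair 2 (adjusted p 0.242), pair 3 (0.0597) or pair 5 (0.0647) in edgeR.

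**Figure D1:**
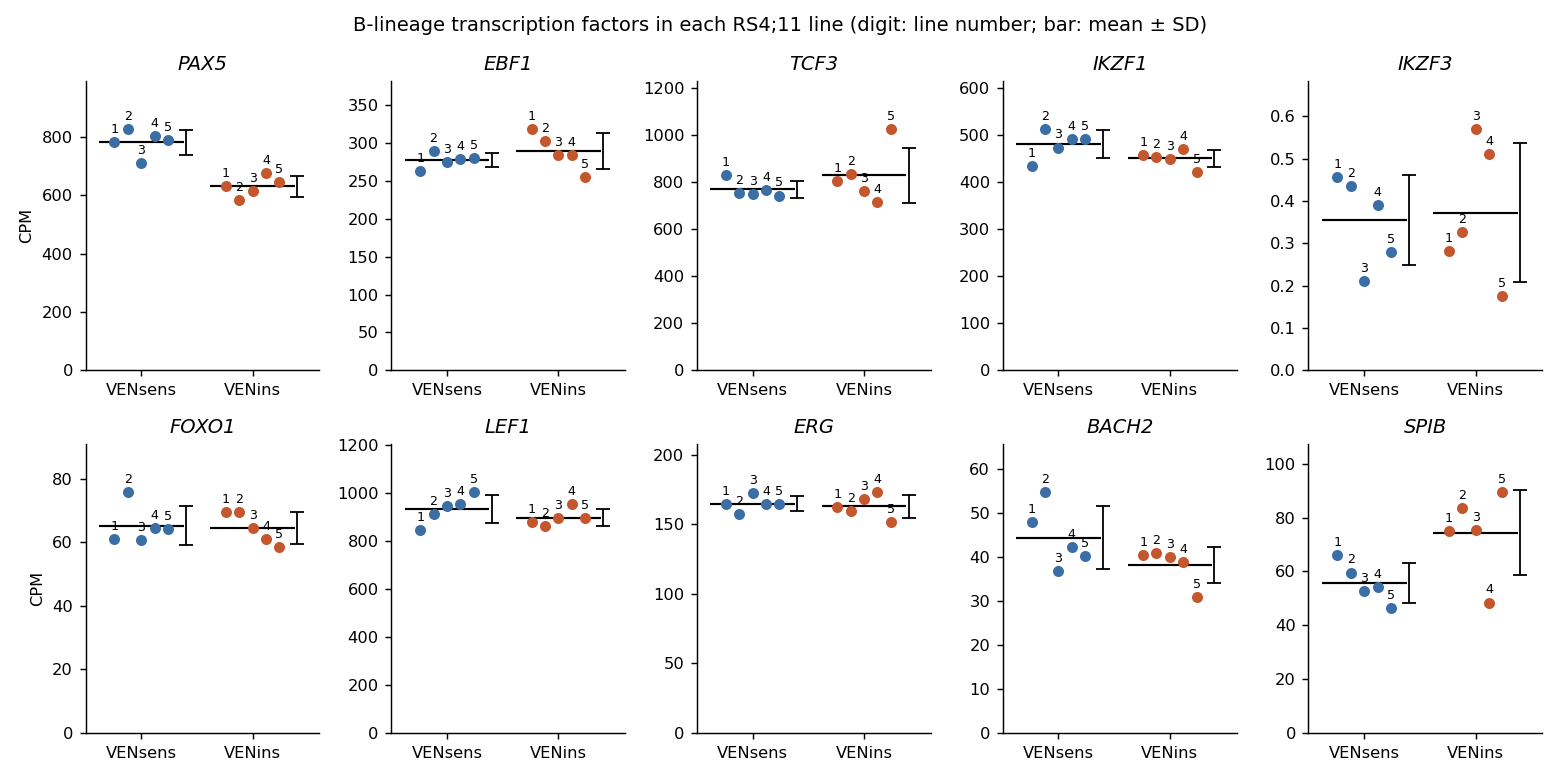
CPM of the 10 B-lineage transcription factors in each RS4;11 line (y axis, starting at 0; points are lines with their number, horizontal bars are group means and whiskers the SD, n = 5 a group). PAX5 was 713 to 827 CPM in VENsens and 584 to 676 in VENins, while the groups overlapped for the other 9 genes.

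The start of PAX5 is shown because it is the called factor, and that of SPIB because its difference was the largest of the tested factors in the opposite direction. Both are 300-base windows from RefSeq on GRCh38.p14, 250 bases before to 50 after the start, printed 5′ to 3′ on the gene's strand, with capitals marking the match to a searched motif. PAX5 lies at chr9:37034219-37034518 on the minus strand (65% GC) and SPIB at chr19:50418688-50418987 on the plus strand (67% GC).
PAX5: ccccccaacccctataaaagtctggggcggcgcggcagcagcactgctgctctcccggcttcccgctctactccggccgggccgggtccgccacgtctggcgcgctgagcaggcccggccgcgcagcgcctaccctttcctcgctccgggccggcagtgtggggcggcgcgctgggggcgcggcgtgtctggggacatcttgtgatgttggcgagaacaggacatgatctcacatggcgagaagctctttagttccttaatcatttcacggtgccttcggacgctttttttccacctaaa
SPIB: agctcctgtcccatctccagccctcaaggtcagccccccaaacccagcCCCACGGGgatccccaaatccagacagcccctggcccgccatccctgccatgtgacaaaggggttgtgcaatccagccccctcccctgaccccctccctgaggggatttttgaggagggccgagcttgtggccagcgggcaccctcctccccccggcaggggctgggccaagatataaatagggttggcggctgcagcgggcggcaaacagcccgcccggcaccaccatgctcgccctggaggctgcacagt
Windows were found for 9 of the 10 factors, 14 windows in all, with none for IKZF3. Each was read on both strands for 8 motifs, as letters, of which the ETS motifs share their last bases. The E-box of E proteins, CAGGTG, was in 20.6% of all 35116 windows and in 3 of the 14, all of ERG. The EBF1 motif CCCNNGGG was in 19.1% of all windows and in windows of ERG, IKZF1 and SPIB, and its match in SPIB began 202 bases before the start. The Ikaros motif TGGGAA was in 24% of all windows and in windows of EBF1, ERG, IKZF1 and LEF1, and the SPI-group ETS motif GAGGAAG was in 13.6% of all and in 1 window of IKZF1. No window of the factors held CCGGAAG of the ERG-group ETS factors (10.3% of all windows), TGTTTAC of FOXO (3.42%), CTTTGAT of TCF/LEF (2.62%) or TGAGTCA of BACH and AP-1 (4.95%). The PAX5 window held none of the 8. A match describes letters and not binding.

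EBF1 (ENSG00000164330), the early B-cell factor that acts upstream of PAX5, was at 264, 290.2, 275, 279 and 279.8 CPM in VENsens lines 1 to 5 and at 319, 303, 285, 285 and 255 CPM in VENins lines 1 to 5. VENins 1 and 2 were above all controls and VENins 5 below them, so the groups overlapped. The log2 fold change was 0.056 (SE 0.058, edgeR adjusted p = 0.685, higher in 4 of 5 line pairs), and it ran from 0.0023 without line pair 1 to 0.10 without pair 5.

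TCF3 (ENSG00000071564), which encodes the E proteins E12 and E47, was at 832, 753, 751, 767 and 743 CPM in the VENsens lines and at 806, 834, 764, 717 and 1025 CPM in the VENins lines, in order of line number. VENins 5 stood above the other 9 lines, and the remaining VENins lines ran from just below to just above the control range. The log2 fold change was 0.098 (SE 0.069, edgeR adjusted p = 0.513, higher in 3 of 5 line pairs), and no more than 0.0070 without line pair 5.

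Of the Ikaros family, IKZF1 (ENSG00000185811), which encodes the zinc-finger regulator Ikaros, was at 435, 513, 474, 493 and 493 CPM in the VENsens lines and at 459, 453, 450.0, 471 and 422 CPM in the VENins lines. The groups overlapped, since VENsens 1 lay below 4 of the VENins lines. The log2 fold change was -0.093 (SE 0.054, edgeR adjusted p = 0.417, higher in 1 of 5 line pairs), -0.060 without line pair 5 and -0.02 once the length and GC trend was taken out. IKZF3 (ENSG00000161405), which encodes Aiolos, a relative of Ikaros of later B cells, had 87 counts over all 10 libraries, 42 in VENsens and 45 in VENins. Its level was 0.458, 0.436, 0.211, 0.390 and 0.279 CPM in the VENsens lines and 0.282, 0.327, 0.570, 0.511 and 0.174 CPM in the VENins lines. Both groups covered about the same low range, and IKZF3 did not pass the filter on low counts, so it was not tested with the other factors. With no filter it gave 0.094 (SE 0.354, edgeR adjusted p = 0.968), in a fit where all genes share 1 trended dispersion.

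FOXO1 (ENSG00000150907), a forkhead factor needed for the recombination genes and the interleukin-7 receptor, was at 61.1, 75.9, 60.6, 64.7 and 64.3 CPM in the VENsens lines and at 69.7, 69.6, 64.5, 61.2 and 58.4 CPM in the VENins lines. The groups covered nearly the same range, with VENsens 2 the highest line. Its log2 fold change was -0.013 (SE 0.062, edgeR adjusted p = 0.946) and turned positive, to 0.046, once the length and GC trend was taken out. It also turned positive without line pair 2 (0.015), pair 4 (0.0034) or pair 5 (0.018).

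LEF1 (ENSG00000138795), the nuclear partner of beta-catenin in WNT signalling and a survival factor of pro-B cells, was at 847, 915, 945, 954 and 1005 CPM in the VENsens lines and at 881, 862, 896, 954 and 895 CPM in the VENins lines. The VENins lines all lay inside the control range. The log2 fold change was -0.055 (SE 0.050, edgeR adjusted p = 0.632), from -0.083 without line pair 1 to -0.027 without pair 5. ERG (ENSG00000157554), an ETS factor of blood stem cells and early B cells, was at 164, 157, 172, 165 and 165 CPM in the VENsens lines and at 163, 159, 168, 173 and 151 CPM in the VENins lines. Here too the groups overlapped, and the log2 fold change was -0.016 (SE 0.052, edgeR adjusted p = 0.916). For ERG the sign turned without line pair 5 (0.01) and once the length and GC trend was taken out (0.032).

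BACH2 (ENSG00000112182), a repressor that holds back plasma cell differentiation, was at 48.0, 54.7, 36.8, 42.2 and 40.1 CPM in VENsens lines 1 to 5 and at 40.4, 40.9, 39.9, 38.9 and 31.0 CPM in VENins lines 1 to 5. VENins lines 1 to 4 sat within the control range, towards its low end, and VENins 5 was the lowest of the 10. The log2 fold change was -0.21 (SE 0.076, unadjusted p = 0.0147, edgeR adjusted p = 0.194, higher in 1 of 5 line pairs), with adjusted p from 0.126 to 0.649 over the alternatives. With the length and GC trend taken out it was -0.12 (unadjusted p = 0.0643).

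SPIB (ENSG00000269404, chromosome 19), an ETS factor of the SPI group that works in B-cell receptor signalling, was at 66.0, 59.6, 52.6, 54.1 and 46.3 CPM in VENsens lines 1 to 5 and at 75.1, 83.7, 75.3, 48.4 and 89.5 CPM in VENins lines 1 to 5. VENins lines 1, 2, 3 and 5 were above every control, and VENins 4 lay among the lowest controls. The mean was 55.7 ± 7.46 CPM in VENsens and 74.4 ± 15.7 CPM in VENins. With a log2 fold change of 0.40 (SE 0.11, higher in 4 of 5 line pairs), SPIB did not pass the test in edgeR (unadjusted p = 0.00243, adjusted p = 0.114). Without line pair 4 it was 0.54 with an edgeR adjusted p of 0.00373, and over all alternatives the adjusted p ran from 1.51e-06 to 0.561. The lowest of these came with no filter on low counts, a fit that leaves out the spread of the single gene (1 trended dispersion for all), as did the lowest value of many ranges below. Without line pair 5 the log2 fold change was 0.26 (edgeR adjusted p = 0.194).

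**Figure D2:**
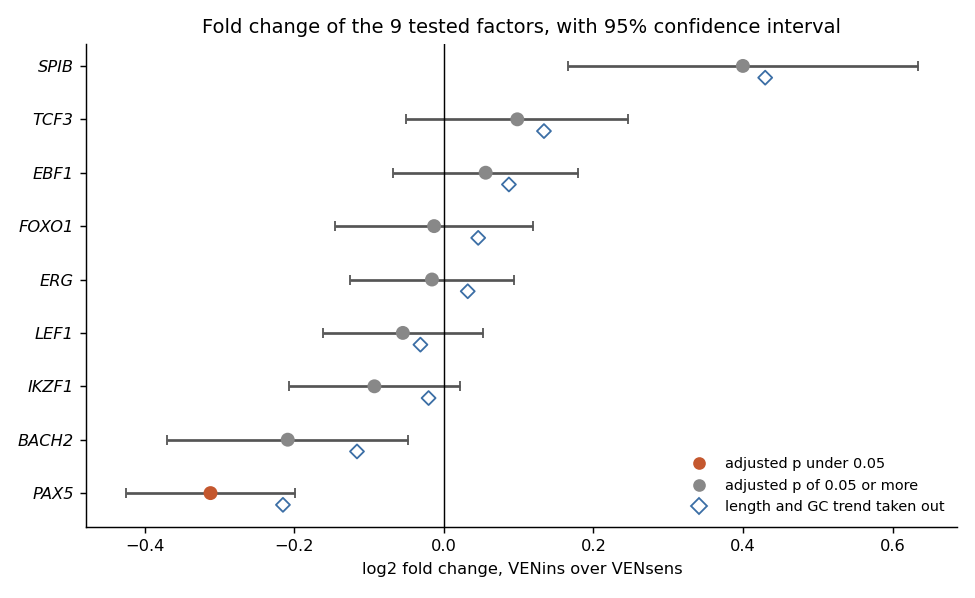
Log2 fold change of the 9 tested B-lineage factors, VENins over VENsens (x axis, log2 scale), with 95% confidence intervals from edgeR (filled points) and with the length and GC trend taken out (open diamonds). The estimates run from -0.31 for PAX5, the 1 factor with an adjusted p under 0.05, to 0.40 for SPIB.

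VENins 5 was the lowest VENins line for 6 of the 10 factors and the highest for 2, TCF3 and SPIB. Its counts also leaned most towards GC-rich transcripts, with a slope of 0.137 log2 units per 10% GC against -0.057 to 0.0651 in the other 9 libraries. The values were therefore read again with the length and GC trend taken out of each library. PAX5 then stood at 713 to 776.5 CPM in the VENsens lines and at 626 to 697 CPM in the VENins lines, still without overlap, with a log2 fold change of -0.22 (edgeR adjusted p = 0.0372 in this setting and 1.24e-06 to 0.242 over all alternatives). TCF3 in VENins 5 was 912 CPM on that scale, and BACH2 33.3 CPM, still the highest and the lowest of the 10 lines. For TCF3 VENins 1, 2 and 3 (840, 878 and 819 CPM) also stood above every control (749 to 783 CPM) there, and VENins 4 below them, with a log2 fold change of 0.13 (unadjusted p = 0.0114, edgeR adjusted p = 0.147, over all alternatives 0.116 to 0.965). EBF1 no longer overlapped, at 270.3 to 278.6 CPM in the VENsens lines and 278.7 to 310.6 CPM in the VENins lines, where VENins 5 was just above the highest control. How many of all genes lacked overlap on this scale was not counted. Before the correction 2.3% of all genes did so with VENins lower and 2.36% with VENins higher. Its log2 fold change was 0.087 there (edgeR adjusted p = 0.277, over all alternatives 0.186 to 0.99).

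**Figure D3:**
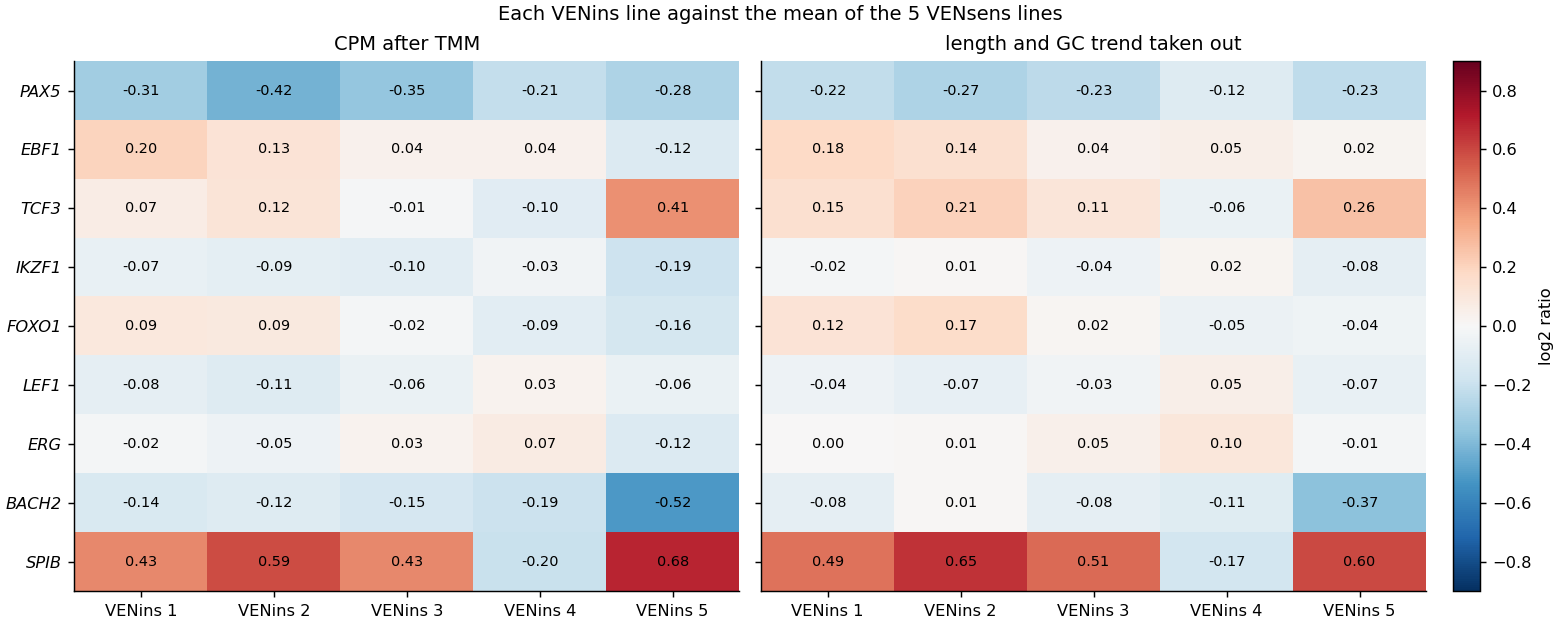
Log2 ratio of each VENins line (columns) to the mean of the 5 VENsens lines for the 9 tested factors (genes as lines of cells, colour and printed value), before and after the length and GC trend was taken out. PAX5 is negative in all 5 lines on both scales (-0.42 to -0.21 and -0.27 to -0.12), SPIB is positive in 4 lines and negative in VENins 4 (-0.20 and -0.17), and TCF3 in VENins 5 goes from 0.41 to 0.26.

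Levels of different genes were compared as CPM per kilobase of exon. In VENsens the order of these levels was LEF1 (174 ± 10.8), TCF3 (127 ± 5.92), PAX5 (83.9 ± 4.6), EBF1 (44.9 ± 1.53), IKZF1 (44.1 ± 2.69), ERG (21.7 ± 0.695), SPIB (13.0 ± 1.74), FOXO1 (10.5 ± 0.994), BACH2 (4.53 ± 0.722) and IKZF3 (0.0355 ± 0.0106 CPM per kilobase). Of the neighbours in that order, the lines overlapped for EBF1 and IKZF1 and for SPIB and FOXO1, and were apart for the other pairs. Counted per kilobase of the longest transcript instead, IKZF1 (76.4) came before EBF1 (52.9). In VENins the per-kilobase level was 67.6 for PAX5 and 17.4 for SPIB.

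The families of these factors held 31 further genes, of which 20 were tested. By edgeR 0 of them were called in either direction (2 higher and 1 lower at an unadjusted p under 0.05, median log2 fold change 0.046, beside 7.79% and 8.38% of all genes and a median of 0.0035), and DESeq2, which gave an adjusted p to 17 of them, called 1, ID2, higher. Of all genes with an adjusted p, DESeq2 called 0.521% higher. The E protein gene TCF12, which took the most counts of the list, was at 117 CPM per kilobase in VENsens, beside 127 for TCF3, while the third E protein gene TCF4 was at 0.229. In the other families the levels per kilobase in VENsens were 39.1 for the ETS factor gene SPI1, 34.5 for IKZF2 and 9.84 for IKZF5 of the Ikaros family, 17.2 for FLI1, 13.6 for FOXO3, 11.5 for BACH1 and 4.25 for EBF3. The PAX genes PAX1, PAX2, PAX3, PAX4 and PAX7 had 0 counts in every library, as did ID4, FEV and SPIC. PAX6 was at 0.121 CPM per kilobase in VENsens.

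**Figure D4:**
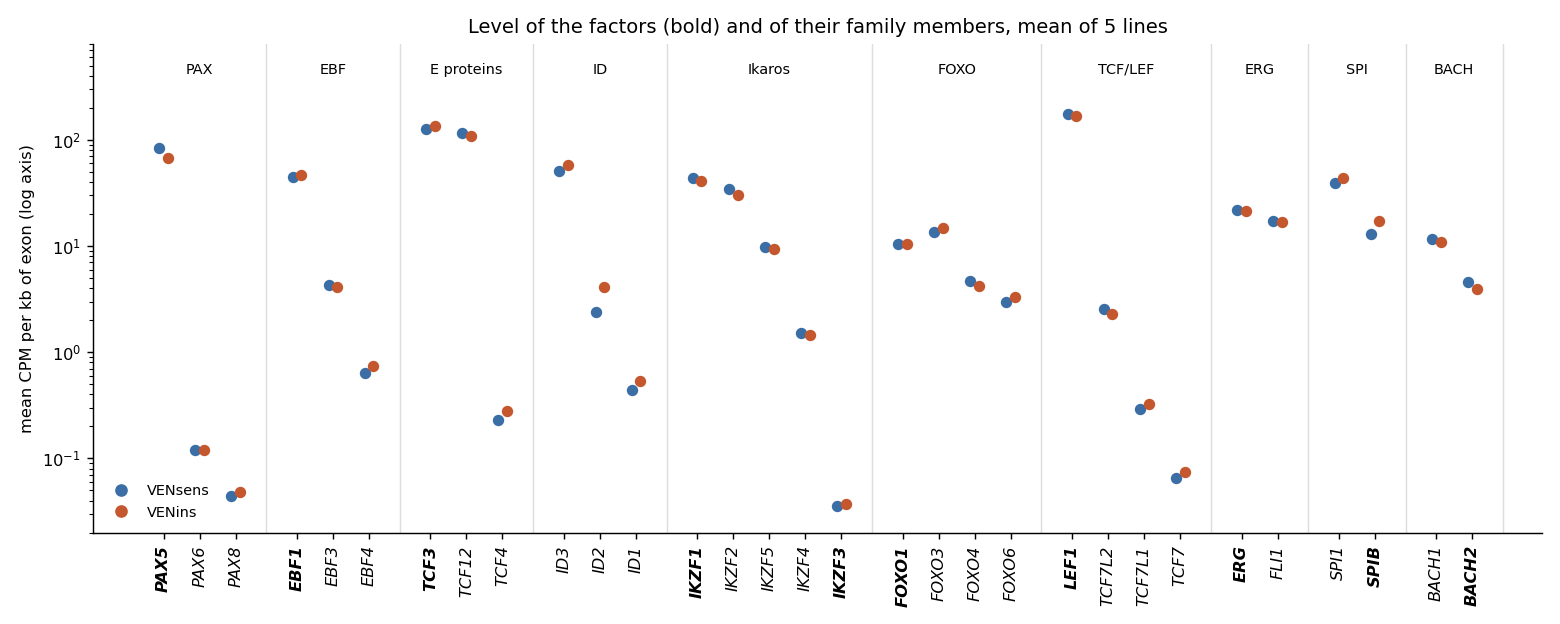
Mean CPM per kilobase of exon in 5 VENsens and 5 VENins lines (y axis, log scale) for the B-lineage factors (bold) and genes of the same families, leaving out family genes with at most 8 counts over all libraries. In VENsens TCF3 (127) and TCF12 (117) lie side by side, while IKZF3 (0.0355) lies far below IKZF2 (34.5) and IKZF1 (44.1).

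The ID genes encode helix-loop-helix proteins without a DNA-binding part that hold E proteins off DNA. ID2 was at 5.24, 6.10, 4.75, 5.63 and 4.55 CPM in the VENsens lines and at 10.8, 10.8, 7.57, 4.87 and 11.7 CPM in the VENins lines, so that VENins 4 sat within the control range and the other 4 VENins lines above it. Its log2 fold change was 0.76 (SE 0.163, edgeR adjusted p = 0.0666). Without line pair 4 it was 0.98 with an edgeR adjusted p of 0.000193, and over the alternatives the adjusted p ran from 5.67e-09 to 0.484. With no term for line number ID2 passed in edgeR (adjusted p 0.0492) and in DESeq2 (0.0239). ID3 gave 0.21 (SE 0.072, edgeR adjusted p = 0.183), IKZF2 -0.18 (SE 0.074, 0.237, over the alternatives 0.049 to 0.731) and TCF12 -0.094 (SE 0.055, 0.42).

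Another 27 lymphoid transcription factors were all tested, and edgeR called 0 of them (1 higher and 8 lower at an unadjusted p under 0.05, median log2 fold change -0.05, where of all genes 7.79% were higher and 8.38% lower at that p), while DESeq2, with an adjusted p for 25, called 1, IRF4, lower. Of all genes with an adjusted p, DESeq2 called 1.17% lower. IRF4, a factor of light chain recombination and plasma cells, was at 221, 221, 213, 211 and 212 CPM in the VENsens lines and at 180.3, 175, 179, 198 and 181 CPM in the VENins lines. The groups did not overlap, and VENins 4 was again the line nearest to the controls. Its log2 fold change was -0.24 (SE 0.053, lower in 5 of 5 line pairs, edgeR adjusted p = 0.0691). Leaving out line pair 4 gave -0.28 with an edgeR adjusted p of 0.0314, within 3.27e-05 to 0.484 over the alternatives. With no term for line number IRF4 passed in edgeR (adjusted p 0.0238) and in DESeq2 (3.27e-05). RUNX1, a core-binding factor of early blood cells, gave -0.19 (SE 0.054, edgeR adjusted p = 0.126, over the alternatives 0.0147 to 0.561), and BCL6, the germinal centre repressor that also protects pre-B cells, -0.16 (SE 0.053, 0.159, over them 0.0136 to 0.564). SOX4, a factor of pro-B cell survival, took the most counts of the list, with -0.048 (SE 0.058, edgeR adjusted p = 0.733), and turned to 0.0098 without line pair 2 and to 0.023 once the length and GC trend was taken out.

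Genes that the B-lineage factors control were followed next, 26 genes of which 24 were tested, with SPIB itself on the list. CIITA was called lower and 0 were called higher by edgeR (5 higher, SPIB among them, and 5 lower at an unadjusted p under 0.05, beside 7.79% and 8.38% of all genes, median log2 fold change -0.034), and DESeq2, with an adjusted p for 21, called CIITA and TNFRSF13C lower and 0 higher. Of all genes, edgeR called 0.161% lower, and DESeq2 called 1.17% lower of those with an adjusted p. CIITA, the transactivator of the MHC class II genes, was at 84.8, 89.2, 77.2, 80.5 and 75.9 CPM in the VENsens lines and at 52.8, 45.5, 59.3, 71.4 and 55.8 CPM in the VENins lines. No VENins line reached the control range, VENins 2 was the lowest and VENins 4 the highest of its group. CIITA fell by 0.53 on the log2 scale (SE 0.089, edgeR adjusted p = 0.0267), from 81.5 ± 5.50 to 57.0 ± 9.56 CPM. Its call was lost without line pair 2 (adjusted p 0.209) or pair 5 (0.0689), and over the alternatives edgeR and DESeq2 gave adjusted p from 7.27e-12 to 0.209.

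The target genes were also grouped by role, after the values were seen. Of the 7 tested genes of the pre-B and B-cell receptor and its first signalling steps, 6 had a positive log2 fold change (median 0.14), beside 51.1% of all tested genes. Of the 8 tested surface and Fc receptor-like genes, 3 were positive (median -0.11). Over the alternatives the first count was 6 or 7 and the second 2 or 3, with 2 when line pair 1, 4 or 5 was left out. For recombination, RAG1, RAG2 and DNTT were all negative (median -0.32), but RAG2 was higher in 3 of 5 line pairs, and DNTT turned positive without line pair 5 or with no term for line number (0.049 and 0.49). The 3 other signalling genes BANK1, RASGRP3 and PIK3AP1 were negative too (median -0.25). The figure labels them adaptors, which RASGRP3 is not. PIK3AP1 turned positive with the length and GC trend taken out and without line pair 4 or 5. Besides CIITA no gene in these roles passed the test in edgeR. The surrogate light chain gene IGLL1, which took the most counts of the list, gave 0.17 (SE 0.058, edgeR adjusted p = 0.183) and VPREB1 0.14 (SE 0.054, 0.228). Of the genes on the other side, TNFRSF13C, the receptor for the survival factor BAFF, gave -0.49 (SE 0.129, edgeR adjusted p = 0.105), BANK1, a B-cell scaffold protein, -0.60 (SE 0.204, 0.18) and RAG1, the recombinase subunit, -0.32 (SE 0.119, 0.204). Without line pair 4 the edgeR adjusted p was 0.0117 for TNFRSF13C and 0.0105 for BANK1, where the alternatives spanned 3.85e-05 to 0.561 and 0.00399 to 0.614, and for RAG1 2.2e-05 to 0.689. VPREB1, TNFRSF13C, BANK1 and RAG1, and DNTT and BLNK below, were singled out after their values were seen.

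**Figure D5:**
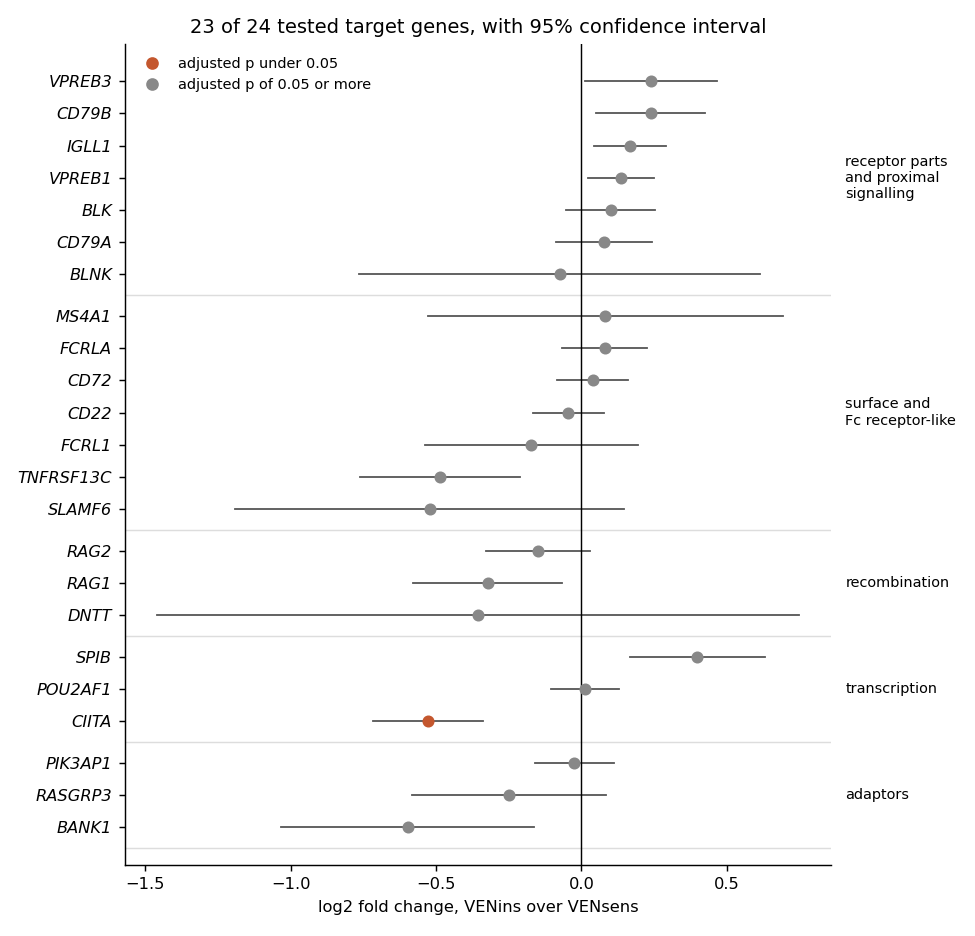
Log2 fold change, VENins over VENsens, of 23 of the 24 tested target genes (x axis, log2 scale), grouped by role, with 95% confidence intervals from edgeR. The other 1, counted in the text, is not reported by name here. CIITA (-0.53) is the 1 gene with an adjusted p under 0.05. Of the receptor genes 6 of 7 lie above 0, while the 3 recombination genes and the 3 genes labelled adaptors lie below it. Of these, RASGRP3 is not an adaptor. PIK3AP1 turned positive with the length and GC trend taken out, and DNTT without line pair 5 or with no term for line number.

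VENins 4 differed from the other VENins lines in several of these genes. DNTT, the polymerase that adds untemplated bases at V(D)J joints, was at 27.3 CPM in VENins 4 and at 1.08 to 3.38 CPM in the other VENins lines, beside 3.05 to 8.31 CPM in VENsens. BLNK, the adaptor beneath the pre-B cell receptor, was at 9.55 CPM in VENins 4 and at 1.18 to 3.09 CPM in the other VENins lines. With all lines DNTT gave a log2 fold change of -0.36 (SE 0.518, edgeR adjusted p = 0.79), and without line pair 4 it was -1.44 (adjusted p 5.12e-05, over all alternatives up to 0.978). Without line pair 5 DNTT turned to 0.049. BLNK gave -0.075 (SE 0.323, edgeR adjusted p = 0.939), and ran from -0.71 to 0.23 when each line pair was left out, positive without pair 1 (0.054), pair 2 (0.0078) or pair 5 (0.23). Among 127 tested genes of all lists, VENins 4 lay inside the VENsens range for 6 genes in which the other 4 VENins lines were above it, which were SPIB, ID2, ID3, IGLL1, NQO1 and SESN1. The reverse, with the other 4 below, held for 4 genes, GFI1, RUNX1, TCF7L2 and TNFRSF13C. For each of the other VENins lines the same counts were 0 or 1 and 0 to 3. VENins 4 lay below the VENsens range, and the other 4 VENins lines above it, for TNFRSF13B, VPREB1 and VPREB3. The opposite held for BANK1 and CD33. These counts were made after the values were seen, and the same was not counted over all tested genes.

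FOXO1 was read through 20 FOXO target genes, 17 of them tested. EdgeR called 0 (1 higher and 5 lower at an unadjusted p under 0.05, beside 7.79% and 8.38% of all genes, median -0.1) and DESeq2 called 0 of 16 with an adjusted p. The stress-response gene SESN1 gave 0.32 (SE 0.092, edgeR adjusted p = 0.129), and without line pair 4 0.43 with an edgeR adjusted p of 0.00807, within 0.000252 to 0.564 over the alternatives. BCL2L11, which encodes the BCL-2 antagonist BIM, was lower in 5 of 5 line pairs without overlap, with means of 44.3 ± 2.44 CPM (VENsens) and 38.2 ± 1.97 CPM (VENins) and -0.21 (SE 0.063, edgeR adjusted p = 0.138, over the alternatives 0.0184 to 0.561). IL7R, the receptor chain for interleukin-7, took the most counts and gave -0.17 (SE 0.057, edgeR adjusted p = 0.177, over them 0.0279 to 0.614). The lowest value of both was of DESeq2 with no term for line number. TXNIP was listed at 0 counts in every library, and the cause was not tested.

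LEF1 and WNT targets numbered 14, LEF1 itself included, of which 6 were tested. EdgeR called 0, and 0 had an unadjusted p under 0.05 (beside 7.79% of all genes higher and 8.38% lower, median -0.028). DESeq2 gave an adjusted p to only 3 of the 6 and called 0 of these. RNF43 and AXIN2, which both damp WNT signalling, gave -0.38 (SE 0.194) and 0.26 (SE 0.22) at about 1 CPM, with edgeR adjusted p of 0.354 and 0.591.

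Among 12 genes listed as repressed by BACH2, 10 were tested, and edgeR called 0 (3 higher and 1 lower at an unadjusted p under 0.05, beside 7.79% and 8.38% of all genes, median 0.04), as did DESeq2 of 9 with an adjusted p. Whether BACH2 controls these genes in these lines was not tested. The oxidoreductase gene NQO1 gave 0.26 (SE 0.106, edgeR adjusted p = 0.249), the cystine transporter gene SLC7A11 -0.19 (SE 0.067, 0.192) and the growth factor receptor gene CSF1R 0.23 (SE 0.097, 0.261). FTL, the ferritin light chain and the gene with the most counts, gave 0.016 (SE 0.05, edgeR adjusted p = 0.915), and turned to -0.02 without line pair 2 and to -0.027 once the length and GC trend was taken out.

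Genes that PAX5 represses numbered 14, of which 10 were tested. EdgeR called 0 (1 higher and 0 lower at an unadjusted p under 0.05, beside 7.79% and 8.38% of all genes, median 0.055), and DESeq2 called 0 of 7 with an adjusted p. The mean of CSF1R over the VENsens lines was 8.77 ± 1.48 CPM and over the VENins lines 10.2 ± 0.889 CPM. The myeloid surface gene CD33 gave -0.48 (SE 0.228, edgeR adjusted p = 0.314), and XBP1, the plasma cell factor with the most counts of the list, 0.093 (SE 0.051, 0.385). CCR2 had 0 counts in every library.

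Markers of B precursors and of other cell types were read beside the factors. The 13 B-precursor markers (11 tested) summed to 2964 ± 26.9 CPM in VENsens and 3066 ± 180 CPM in VENins. VENins 5 stood at 3376 CPM and the other VENins lines at 2937 to 3038 CPM. EdgeR called 0 of them and DESeq2 0 of 10 with an adjusted p (edgeR, 3 higher and 2 lower at an unadjusted p under 0.05, beside 7.79% and 8.38% of all genes, median -0.044). CD79B, which pairs with CD79A in the receptor, gave 0.24 (SE 0.088, edgeR adjusted p = 0.2, over the alternatives 0.00709 to 0.584).

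The 10 mature B and plasma cell markers (4 tested) summed to 44.9 ± 2.45 CPM in VENsens and 58.8 ± 12.2 CPM in VENins, with VENins 4 at 40.4 and the other VENins lines at 55.0 to 73.4 CPM. SPIB was also lowest in VENins 4, and the part of these markers in its values was not tested. EdgeR called 0 (2 higher and 0 lower at an unadjusted p under 0.05, beside 7.79% and 8.38% of all genes, median 0.26), and DESeq2 called 0 of 3 with an adjusted p. TNFRSF13B, which encodes the receptor TACI and took the most counts, was at 30.6 CPM in VENins 4 and at 44.0 to 57.8 CPM in the other VENins lines, beside 31.9 to 36.1 CPM in VENsens. It gave 0.43 (SE 0.109, edgeR adjusted p = 0.0967), and without line pair 4 0.60 with 0.000292, within 1.48e-06 to 0.518 over the alternatives. The joining chain gene JCHAIN gave 0.50 (SE 0.162, edgeR adjusted p = 0.161, over the alternatives 0.0191 to 0.513). The plasma cell surface gene SDC1 gave 0.073 (SE 0.136, 0.845 in edgeR) and turned to -0.051 without line pair 1 and to -0.0051 without pair 5.

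The T and NK cell markers, 14 with 4 tested, summed to 132 ± 4.78 CPM in VENsens and 135 ± 8.31 CPM in VENins, most of it from LCK, a kinase gene, while CD8A and KLRD1 were at 0. EdgeR called 0 and DESeq2 0 of 3 with an adjusted p, with 0 at an unadjusted p under 0.05 in edgeR (beside 7.79% of all genes higher and 8.38% lower, median -0.069). LCK gave -0.022 (SE 0.058, edgeR adjusted p = 0.892, and 0.0055 without line pair 2), the granule gene NKG7 0.11 (SE 0.065, 0.417), GATA3, a T-cell factor, -0.11 (SE 0.138, 0.735) and CD3E, of the T-cell receptor complex, -0.20 (SE 0.206, 0.67).

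The 16 myeloid markers (8 tested) summed to 23.3 ± 1.71 CPM in VENsens and 24.3 ± 2.87 CPM in VENins, CSF1R took the most counts, and S100A8, S100A9 and PRTN3 were at 0. EdgeR called 0 and DESeq2 0 of 3 with an adjusted p (edgeR, 2 higher and 1 lower at an unadjusted p under 0.05, beside 7.79% and 8.38% of all genes, median -0.32). The integrin gene ITGAX gave -1.14 (SE 0.284, edgeR adjusted p = 0.0967, over the alternatives 0.00279 to 0.484) at under 1 CPM and had no adjusted p in DESeq2, and the myeloid factor gene CEBPE 0.28 (SE 0.115, 0.25).

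The 12 erythroid, platelet, endothelial and stromal markers (3 tested) summed to 59.5 ± 5.73 CPM in VENsens and 46.7 ± 7.56 CPM in VENins. HBA1, PF4 and PECAM1 were at 0, and the cause of these 0 values was not tested. EdgeR called 0 (0 higher and 1 lower at an unadjusted p under 0.05, beside 7.79% and 8.38% of all genes, median -0.13), and DESeq2 called ITGA2B lower, beside 1.17% of all genes with an adjusted p. ITGA2B, the platelet integrin gene that took the most counts, gave -0.48 (SE 0.099, edgeR adjusted p = 0.061), and passed in edgeR without line pair 4 (0.0329) or pair 5 (0.00164), within 1.1e-07 to 0.484 over the alternatives. In edgeR it also passed with the length and GC trend taken out (adjusted p 0.0223). With no term for line number it did not pass in edgeR (adjusted p 0.08) or DESeq2 (0.0834). PDGFRB, a growth factor receptor gene of stromal cells, gave -0.13 (SE 0.086, edgeR adjusted p = 0.486). COL1A1, a collagen gene, gave -0.054 (SE 0.168, edgeR adjusted p = 0.912) and turned to 0.0043 without line pair 3, to 0.081 without pair 4 and to 0.012 once the length and GC trend was taken out.

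Genes whose log2 CPM followed the most variable factors over the 10 libraries were listed as a description, out of 9631 candidates. For SPIB these were CBFA2T3 (Pearson r = 0.976), CDKN2D (0.96) and RYK (0.958), and for BACH2 PIK3IP1 (0.96), FCHO2 (0.952) and KCTD7 (0.95). IKZF3, also among the 3 most variable, varied by 29.8% (VENsens) and 44.0% (VENins) of its mean, where counting error alone gives 33.9%, so no genes are listed for it. The 10 libraries fall into both groups, differ in GC slope, and n = 10 throughout.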

How the data were processed

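Per the submitters' processing notes, the authors made their files with bcl2fastq 2.20.0.422, Bowtie2 2.3.5.1, SAMtools 1.9 and HTSeq 0.9.1 on GRCh37 (hg19). The deposited values are whole-number read counts per Ensembl gene, 1 library a line, from a kit that does not mark strand. Reads that fit more than 1 gene were set aside as ambiguous (3.69 to 3.98% of reads a library), so a gene can lose reads where its exons overlap another. Whether counting used strand is not given in the sources used here. It is therefore not known whether antisense overlaps were treated in the same way. In GENCODE 29 (GRCh38, used for names, lengths and GC content, and so of another build than the files), exons overlap between LEF1 and LEF1-AS1 (279 bases), BACH2 and AL121787.1 (396), IKZF1 and AC124014.1 (110), PAX5 and AL161781.2 (80), FOXO1 and LINC00598 (269), and SPIB and AC020909.1 (839), the last 2 on the same strand. Counts of FTL, which has many pseudogenes, and of IGLL1, which has close copies, are uncertain. Names were found for 52526 of 63677 IDs, and unnamed IDs held 0.907% of gene counts. Reads on no gene, ambiguous, of low mapping quality or unaligned were left out of library sizes: 52.7 to 54.2% of reads were on genes. All 37 mitochondrial genes were at 0 in every library, and the cause was not tested.

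Counts were filtered with filterByExpr (minimum count 10, minimum total 15), scaled by TMM (factors 0.985 to 1.01) and tested with edgeR 4.0.16 in R 4.3.3, with limma 3.58.1, by quasi-likelihood F tests with group and line number as terms, since the study's methods name a paired analysis. Which lines it paired is not stated, and line number, from the sample titles, was taken here. The study's own tool was DESeq2, run here (1.42.0) as an alternative. SE was the log2 fold change divided by the square root of F. The models were first tested on simulated counts, of which no result is given here. Python 3.11.15, numpy 2.4.6, pandas 2.3.3 and matplotlib 3.10.9 made the plots. Lines of 1 group differed beyond sampling noise (chi-square per degree of freedom 1.93 to 14.3 over 20 pairs).

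Members and gene lists were chosen with earlier results of these data known. Named genes were all 10 factors and, of each list, those with an adjusted p under 0.05 or else the 3 with the smallest p, the most abundant gene, and other cell types' markers at 0, of which some are not reported here. For the 3 factors with the largest SD of log2 CPM, the 3 protein-coding genes of at least 5 CPM with the highest Pearson r were named, apart from IKZF3. The alternatives were no line-number term, DESeq2, other scaling, other filters, a length and GC correction and leaving out each line pair, with 2 more chosen after the data were seen.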

Additional observations from a re-analysis of the deposited data

Results flagged for a closer look

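Some lines stood far from the other 4 of their group, by a gap that took up more of the group's range than Dixon's limit allows. This marked 12 of 100 groups of values, where chance marks about 1 in 20, or 5 of 100. The groups include those of DNTT, BLNK and BANK1, which were singled out after their values were seen and are marked here. The count can therefore not be set against chance.

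Of the B-lineage factors, TCF3 was at 831.7 CPM in VENsens 1 (other VENsens lines 743 to 767), FOXO1 at 75.92 CPM in VENsens 2 (60.65 to 64.67) and BACH2 at 30.97 CPM in VENins 5 (38.86 to 40.87). VENins 4 was apart from the other VENins lines for DNTT at 27.27 CPM (1.08 to 3.376), BLNK at 9.548 CPM (1.176 to 3.092), BANK1 at 4.479 CPM (1.612 to 2.359) and IRF4 at 197.6 CPM (175.2 to 181.2). IGLL1 was at 899.3 CPM in VENins 5 (704.9 to 747.1).

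Among the VENsens lines, VENsens 2 was apart for SOX4 at 1192 CPM (894.6 to 964.8), CSF1R at 6.153 CPM (9.175 to 9.65) and ITGAX at 0.5814 CPM (0.9102 to 0.9972). TNFRSF13B was at 36.15 CPM in VENsens 4 (31.87 to 32.47).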

How the results depend on the processing

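The study's methods name a paired analysis without its pairs, and lines that share a number correlated by only -0.103, 0.028, -0.017, 0.00937 and -0.0799, and no VENins line correlated best with its own number, so the lines are taken to share only a number. Line number was kept as a term because the methods name pairing. With no replicate block edgeR called 149 genes (49 higher, 100 lower), and DESeq2 without the block 739 (358 higher, 381 lower), where the blocked edgeR test called 33 (6 and 27). Without the block ID2 (adjusted p 0.0492) and IRF4 (0.0238) passed in edgeR. BCL2L11 (0.0184), IL7R (0.0279), RUNX1 (0.0147), BCL6 (0.0136), SESN1 (0.0351) and TNFRSF13B (0.00653) passed in DESeq2 only without it, and ITGA2B only with it (0.00241, against 0.0834 without). ID2, IRF4 and TNFRSF13C passed in DESeq2 with the block and without it. Without the block DNTT turned to 0.4885 and BLNK to 0.2206 in edgeR, and to 0.486 and 0.2085 in DESeq2. DESeq2 with the block called 217 genes (67 higher, 150 lower). No filter on low counts gave 664 (231 higher, 433 lower), where 32884 genes share 1 trended dispersion, and 1 B-lineage factor higher, SPIB.

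With the length and GC trend taken out, 146 genes were called (62 higher, 84 lower), 42.5% of calls were higher against 18.2%, and FOXO1 turned to 0.04585, ERG 0.03187, SOX4 0.02286, FTL -0.02686 and COL1A1 0.01196. The alternatives chosen after seeing the data gave 359 genes (168 higher, 191 lower) for that correction with no block, with FOXO1 at 0.04688, ERG 0.0311, SOX4 0.01953, FTL -0.02509, COL1A1 0.01961, DNTT 0.461 and BLNK 0.1883, and 502 (234 higher, 268 lower) without VENins 5 and with no block, with FOXO1 at 0.02023, ERG 0.008973, DNTT 0.7227 and BLNK 0.4358. The cause was not tested. Other scaling (RLE 35 genes, library size alone 44) and a stricter filter (28) moved the total by less than 1.5 times.

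Leaving out each line pair gave 6 to 331 genes (1 to 79 higher, 5 to 252 lower), 0 to 1 factors higher and 0 to 1 lower. The log2 fold changes that turned sign ran from -0.05129 to 0.2018 for SDC1, -0.7059 to 0.2277 for BLNK, -0.06336 to 0.01789 for FOXO1, -0.07803 to 0.009832 for SOX4, -0.0198 to 0.03457 for FTL, -0.06677 to 0.005475 for LCK, -0.2182 to 0.08146 for COL1A1, -0.03838 to 0.01001 for ERG and -1.443 to 0.0491 for DNTT. Of all values of single genes under the alternatives, 633 kept direction and side of the threshold, 12 kept direction but had no adjusted p in DESeq2, 49 newly passed, 5 no longer passed and 35 changed sign. IKZF3 was tested only with no filter (0.094, edgeR adjusted p = 0.968), without line pair 5 (0.21, 0.82) or without VENins 5 and with no block (0.29, 0.655). Its 87 counts limit what can be seen.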

Other observations

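Summed over the 10 B-lineage factors, the level was 3575 ± 78.4 CPM in VENsens and 3438 ± 83.5 CPM in VENins. PAX5 made up 783 CPM of the first sum and 631 of the second, and TCF3 769 and 829. The 26 target genes, SPIB again among them, summed to 4727 ± 63.4 CPM in VENsens and 4915 ± 338 CPM in VENins, from 4466 in VENins 4 to 5410 in VENins 5.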
